A study of Mus musculus with 4 samples.

Results

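The let-7 family was examined here as 9 mature miRNAs, the 5p arms of let-7a, let-7b, let-7c, let-7d, let-7e, let-7f, let-7g, let-7i and miR-98. They were picked by name from a read-count table in which 816 mouse miRNAs have at least 1 read. The 3p arms of the same precursors, of which 9 were listed, were followed as passenger arms. All 9 members and 6 of the 9 passenger arms passed the filter on low counts and were among the 345 miRNAs tested.

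The libraries came from dissociated prostates of wild-type (WT) C57Bl/6 males, 10 weeks old in every group. Basal libraries were made from Sca-1 positive, lineage negative cells sorted for high CD49f, an integrin chain, and luminal libraries from cells of the same Sca-1 positive, lineage negative fraction sorted for low CD49f. Each group had 2 libraries. The labels do not give the animals behind a library or whether any were pooled, so all p-values reflect the spread between these libraries, which may be technical. "Luminal" means this gate only.

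The miRNA reads per library ran from 1501898 to 3278294. miR-200c-3p took 22.3% and 46.9% of them in the basal libraries (replicate 1, then 2, here and below) against 68.5% and 71.6% in the luminal ones, and so weighs on any share of the total. Levels are therefore given as RPM, reads scaled to 1000000 miRNA reads after adjustment of the totals by TMM (trimmed mean of M values). Of the markers of the gates, miR-205-5p was at 51956 and 80905 RPM in basal and 6686 and 4605 RPM in luminal libraries, and miR-148a-3p at 2870 and 3948 RPM in basal and 25381 and 20233 RPM in luminal libraries. The endothelial pair miR-126a-3p and miR-126a-5p summed to 55057 and 34556 RPM in basal and 10579 and 966 RPM in luminal libraries, with both at reads above 0 in every library. The smooth muscle markers, miR-145a-5p with miR-143-3p, summed to 1054 and 1970 RPM in basal and 9473 and 12374 RPM in luminal libraries. Summed over each list, 4 leukocyte miRNAs reached 3481 and 6461 RPM in basal and 2955 and 1909 RPM in luminal libraries. Most of each sum was miR-150-5p (log2 fold change 1.28), though in luminal replicate 2 it was 1180 of 1909 RPM. There miR-142-3p, miR-142-5p and miR-223-3p were at 208, 189 and 332 RPM. Their log2 fold changes were -1.74, -1.69 and -2.35, and edgeR called none of the 4 leukocyte miRNAs (adjusted p from 0.309 to 0.388). In the same sums 3 fibroblast miRNAs reached 572 and 620 RPM in basal and 1170 and 1133 RPM in luminal libraries, and 2 erythroid miRNAs 170 and 3019 RPM in basal and 206 and 646 RPM in luminal libraries. Striated muscle and neural miRNAs summed to at most 61.0 RPM in basal and 263 RPM in luminal libraries. A lineage-negative sort is meant to remove blood and often endothelial cells, but the labels do not name the lineage antibodies. The part of these other cell types in the let-7 values was not tested, and fewer cells of a type cannot be told apart from less RNA per cell.

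let-7 miRNAs restrain proliferation and hold cells in a differentiated state by repressing mRNAs such as those of Ras proteins, Hmga2, Myc and Lin28. Target choice rests mainly on the seed, bases 2 to 8 from the 5′ end, which pairs with the mRNA. Lin28 in turn blocks maturation of let-7 precursors by binding their terminal loop, where its zinc knuckles favour the motif GGAG. In human prostate cancer cells let-7c is known to lower androgen receptor levels.

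The mature sequences, from RefSeq on GRCm38.p6, are shown because the members share 1 seed, in capitals, and differ at few of the other bases, which bears on how reads could be assigned to each.
mmu-let-7a-5p: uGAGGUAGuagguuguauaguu
mmu-let-7b-5p: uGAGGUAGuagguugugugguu
mmu-let-7c-5p: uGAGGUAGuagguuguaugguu
mmu-let-7d-5p: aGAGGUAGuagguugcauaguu
mmu-let-7e-5p: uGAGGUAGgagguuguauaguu
mmu-let-7f-5p: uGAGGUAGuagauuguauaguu
mmu-let-7g-5p: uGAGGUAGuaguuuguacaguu
mmu-let-7i-5p: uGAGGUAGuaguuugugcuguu
mmu-miR-98-5p: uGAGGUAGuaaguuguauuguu

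All 9 members have 22 bases and the seed GAGGUAG. Counting positions from 1 at the 5′ end and giving the base of let-7a first, let-7c differs by A19G alone, let-7e by U9G and let-7f by G12A, while let-7b carries A17G and A19G. let-7d, the member that does not begin with U, carries U1A and U16C. let-7g differs by G12U and U18C, miR-98 by G11A and A19U, and let-7i, the most distant from let-7a, at 4 positions (G12U, A17G, U18C and A19U). Of the 36 pairs of members, 4 differ at 1 base, namely let-7a with let-7c, let-7e or let-7f, and let-7b with let-7c. The sources used here do not say how reads matching several names were assigned, so the values of these 5 members are less certain than their sum. Of the other mouse miRNAs in the RefSeq table, let-7k and miR-1961 have the same seed. let-7k had 3 and 1 reads in basal and 0 and 1 reads in luminal libraries, and miR-1961 had no read. let-7j had 8 reads in basal replicate 1 and none elsewhere, and its bases 2 to 8 are GAGGUAU, not the family seed.

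The 9 members are encoded by 12 precursors, given here on GRCm38. let-7a, let-7c and let-7f each have 2, so their mature reads cannot be split by locus. Mirlet7d, Mirlet7f-1 and Mirlet7a-1 lie on the minus strand of chromosome 13 between 48536012 and 48538272, all in exons of the long noncoding RNA gene 6720427I07Rik. Mirlet7c-2 and Mirlet7b lie on the plus strand of chromosome 15 between 85706603 and 85707403, in an exon of Lncppara. Mirlet7f-2 and Mir98 lie on the plus strand of the X chromosome between 151912346 and 151913321, in an intron of the ubiquitin ligase gene Huwe1. The precursors with miR-99, miR-100 or miR-125 neighbours are Mirlet7c-1 on chromosome 16 (77599657 to 77599750, plus strand, intron of Mir99ahg), Mirlet7e on chromosome 17 (17830352 to 17830444, plus strand, intron of Spaca6) and Mirlet7a-2 on chromosome 9 (41536716 to 41536811, plus strand, intron of 3110039I08Rik). Mirlet7g stands apart on chromosome 9 (106178840 to 106178927, plus strand) in an intron of Wdr82. Mirlet7i lies on chromosome 10 (122985640 to 122985724, minus strand) in an exon of the transcribed pseudogene D630033A02Rik.

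The stretch between the arms of each precursor was searched for GGAG, spelled in these letters on the RNA strand only. It was found in 9 of the 12 let-7 loops (75.0%), against 44 of 633 loops (6.95%) of the other precursors that have both arms in the table. The other loops were shorter, at a median of 16 bases against 30.5. The loops of Mirlet7b and Mirlet7c-2, which do not hold it, are shown with 2 that do, where it is in capitals.
Mirlet7g: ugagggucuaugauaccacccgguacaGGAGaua
Mirlet7c-1: uagaguuacacccugGGAGuuaa
Mirlet7c-2: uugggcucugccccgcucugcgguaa
Mirlet7b: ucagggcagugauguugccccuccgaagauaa

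The order of abundance within the family was nearly the same in all 4 libraries. let-7c led in every library, followed in turn by let-7b, let-7a and let-7f, and miR-98 came last. let-7c took 47.1% and 41.0% of the family's 5p reads in the basal libraries, against 40.9% and 41.1% in the luminal ones. Together the 4 leading members made up 90.2% and 90.9% of the family in basal and 89.4% and 90.2% in luminal libraries. In luminal replicate 1 let-7i stood above let-7d and let-7e above let-7g; in the other 3 libraries both pairs had the opposite order. Among all miRNAs, let-7c ranked 5 and 7 by reads in basal and 8 and 5 in luminal libraries, and miR-98 ranked 104 and 126 in basal and 123 in both luminal libraries.

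The leading pair differ from each other at 1 base. mmu-let-7c-5p was at 41493 and 19907 RPM in the basal libraries, against 15898 and 17124 RPM in the luminal ones. The groups did not overlap, but the 2 basal libraries were farther apart than the lower of them was from luminal cells. mmu-let-7b-5p was at 23084 and 10264 RPM in basal and at 7685 and 10378 RPM in luminal libraries, so basal replicate 2 fell within the luminal range. The log2 fold changes, basal over luminal, were 0.89 with a standard error of 0.69 for let-7c (adjusted p = 0.531, edgeR quasi-likelihood test) and 0.88 with a standard error of 0.67 for let-7b (adjusted p = 0.527). Neither passed the threshold of 0.05.

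let-7a, whose sequence is that of the founding let-7 of Caenorhabditis elegans, and let-7f share a precursor cluster on chromosome 13. mmu-let-7a-5p was at 9017 and 7551 RPM in basal and 5963 and 5572 RPM in luminal libraries. mmu-let-7f-5p was at 5836 and 6450 RPM in basal and 5198 and 4501 RPM in luminal libraries. For both, the basal libraries lay above the luminal ones and replicates were close, yet the differences were small, with log2 fold changes of 0.52 (95% interval -0.75 to 1.79, adjusted p = 0.704 by edgeR) and 0.34 (-0.91 to 1.59, adjusted p = 0.817). let-7f was the only member that was not highest in basal replicate 1. mmu-let-7d-5p, from the same cluster, was at 3229 and 1629 RPM in basal and 1344 and 1750 RPM in luminal libraries, and the groups overlapped (log2 fold change 0.65, edgeR adjusted p = 0.615).

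mmu-let-7g-5p had the largest fitted difference of the 9. It was at 1584 and 901 RPM in basal and at 561 and 564 RPM in luminal libraries, which is 1243 ± 483 against 563 ± 1.89 RPM (mean ± SD, n = 2 each). The luminal libraries were nearly equal, and both basal libraries were higher. edgeR put the log2 fold change at 1.14 ± 0.60 (standard error), with a 95% interval of -0.12 to 2.40 (unadjusted p = 0.0727, adjusted p = 0.363), so the difference did not pass. mmu-let-7e-5p was at 1162 and 699.9 RPM in basal and 637 and 367 RPM in luminal libraries, again without overlap (edgeR log2 fold change 0.89, adjusted p = 0.472). mmu-let-7i-5p had 2440 and 1073 RPM in basal and 1412 and 1275 RPM in luminal libraries, with the lowest value in a basal library (edgeR log2 fold change 0.39, adjusted p = 0.790). mmu-miR-98-5p, which bears another name but the same seed, had 181 and 121 RPM in basal and 158 and 140 RPM in luminal libraries. Its luminal values lay between the basal ones, and its log2 fold change was 0.02 (95% interval -1.52 to 1.55, adjusted p = 0.983).

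**Figure D1:**
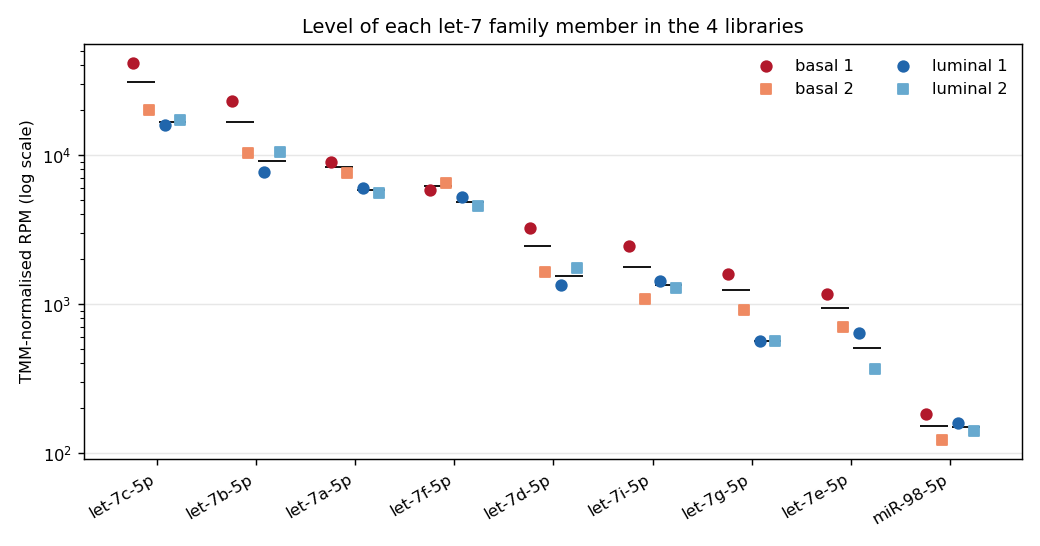
Level of each let-7 member, in TMM-normalised RPM on a log scale, in the 2 basal libraries (red, orange) and the 2 luminal libraries (dark and light blue), with short lines at group means. let-7c leads and miR-98 is last in every library, and basal replicate 1 has the highest value for 8 of the 9 members.

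None of the 9 members was called between basal and luminal libraries by edgeR at an adjusted p under 0.05, where 15 of the 345 tested miRNAs (4.35%) were. None had an unadjusted p under 0.05 either, where 55 of the 345 tested miRNAs did in either direction. Those with such a p and a higher level in basal cells were 6.38% of the tested miRNAs. DESeq2 also called none. The smallest adjusted p of a member was 0.363, and the 95% intervals of all 9 log2 fold changes held 0. They also held values of 1.5 and above, so differences of that size in the basal direction were not excluded by these 4 libraries.

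In the TMM-scaled fit all 9 log2 fold changes were above 0, where 49.9% of all tested miRNAs were, but that of miR-98 was below 0 with RLE factors, in DESeq2, with miR-200c-3p left out and with a minimum mean of 10 RPM. The members' median was 0.65 and that of all tested miRNAs -0.01. Both basal libraries exceeded both luminal libraries in 5 members (let-7a, let-7c, let-7e, let-7f and let-7g), and 27.2% of all tested miRNAs did so. The other 4 members overlapped. The members come from the same 4 libraries and may share reads, so they are not independent. Without basal replicate 1 the members' median was 0.25, with let-7i and miR-98 at -0.34 and -0.31, and without basal replicate 2 it was 1.08. The members' median exceeded that of all tested miRNAs by 0.66 with all 4 libraries. The excess was 0.50 and 1.30 without basal replicates 1 and 2, and 0.16 and 0.52 without luminal replicates 1 and 2. Each fit without a library was filtered anew, so its median of all covers a different set of miRNAs. Over miRNAs tested in both fits, the median shift was 0.03 and -0.01 without basal replicates 1 and 2. It was 0.20 and -0.06 without luminal replicates 1 and 2. In TMM-scaled levels, basal replicate 1 exceeded basal replicate 2 by 2.27 times for let-7i, 2.25 times for let-7b and 2.08 times for let-7c, against 1.19 times for let-7a and 0.905 times for let-7f. The ratio of luminal replicate 1 to luminal replicate 2 ran from 0.741 for let-7b to 1.73 for let-7e.

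**Figure D2:**
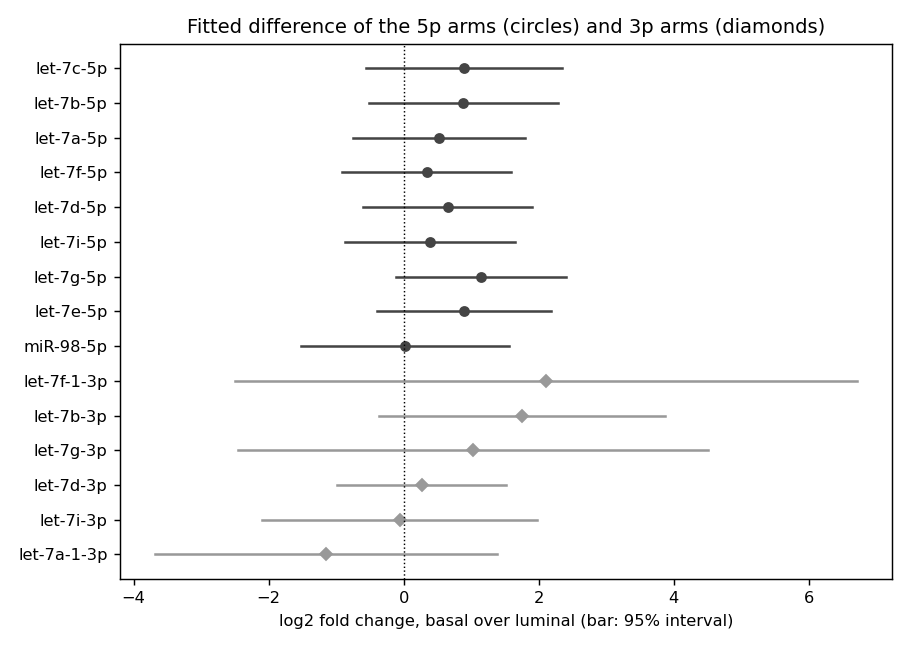
Fitted log2 fold change, basal over luminal, of the 9 members (circles) and the 6 tested passenger arms (diamonds), with 95% intervals from the edgeR fit. Every interval spans 0, and the intervals of the passenger arms with few reads are the widest.

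The family's summed level followed the same libraries. The 9 members together stood at 88027 and 48596 RPM in the basal libraries, against 38856 and 41671 RPM in the luminal ones. Basal replicate 2 was thus closer to the luminal libraries than to basal replicate 1. As a plain share of miRNA reads, the family took 12.7% and 4.98% in basal and 3.21% and 3.41% in luminal libraries, with exact binomial 95% intervals at most 0.0959 points wide that cover counting error only. The mean share was 8.84% ± 5.46 for basal cells, against 3.31% ± 0.146 for luminal cells (SD, n = 2 each), a ratio of 2.67.

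That ratio moved with the reads it was divided by. With miR-200c-3p left out of the total, the family took 16.3% and 9.38% in basal and 10.2% and 12.0% in luminal libraries, with means of 12.9% ± 4.92 and 11.1% ± 1.30 (SD, n = 2 each), a ratio of 1.16. The groups then overlapped, and basal replicate 2 was the lowest of all 4. Over all listed reads, which include sequences named Cali and an adaptor, the shares were 8.95% and 2.29% in basal and 1.21% and 1.38% in luminal libraries, a ratio of 4.34. Without basal replicate 1, the log2 ratio of the shares of miRNA reads was 0.59, against 1.42 with it.

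**Figure D3:**
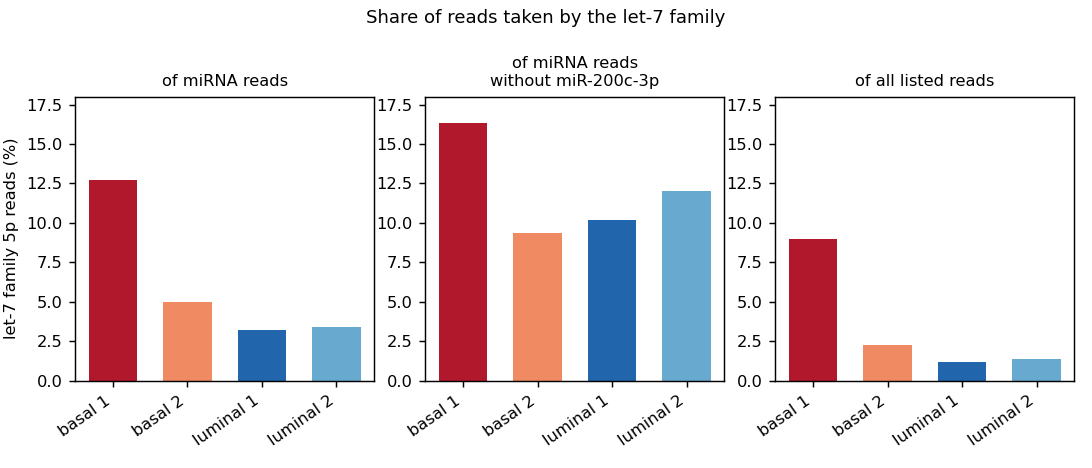
Share of reads taken by the 9 members, in percent, in the 2 basal and 2 luminal libraries, over 3 totals. Both basal bars exceed both luminal bars over miRNA reads and over all listed reads, but with miR-200c-3p left out basal replicate 2 (9.38%) is the lowest library.

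Shares within the family need no scaling between libraries, since each member is divided by the family's own 5p reads. Here 3 of the 9 members, all of them minor, had shares that did not overlap between groups. In RPM, 51.6% of all tested miRNAs did not overlap in one direction or the other, so this count is no result about the family. let-7g made up 1.80% and 1.85% of the family in basal and 1.44% and 1.35% in luminal libraries. let-7i made up 2.77% and 2.21% in basal and 3.64% and 3.06% in luminal libraries. miR-98 made up 0.205% and 0.249% in basal and 0.407% and 0.335% in luminal libraries. An exact 2-sided permutation test of 2 libraries against 2 cannot give a p below 0.333, and each of these 3 comparisons gave that value.

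let-7g and let-7i differ at 2 bases (A17G and A19U, the base of let-7g first) and at no position of the seed. Read against each other, a pair chosen after their values were seen, let-7i had 154 and 119 reads for every 100 reads of let-7g in basal libraries, and 252 and 226 in luminal libraries. The share of let-7g was higher and that of let-7i lower in both basal libraries, so this ratio could not overlap between groups. Its lack of overlap is therefore no further result. Neither miRNA is 1 base away from another member.

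The shares of the abundant members differed more between the 2 basal libraries than between the group means. In the luminal libraries this held for let-7a, let-7b and let-7f but not for let-7c, at 40.9% and 41.1%. let-7b and let-7c together made up 73.4% and 62.1% of the family in basal and 60.7% and 66.0% in luminal libraries. let-7a and let-7f together made up 16.9% and 28.8% in basal and 28.7% and 24.2% in luminal libraries. Basal replicate 1 stood apart in both sums, and basal replicate 2 resembled luminal replicate 1. With the 5 members linked by 1-base differences joined into 1 group, the group held 91.6% and 92.3% of the family in basal and 91.1% in both luminal libraries.

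**Figure D4:**
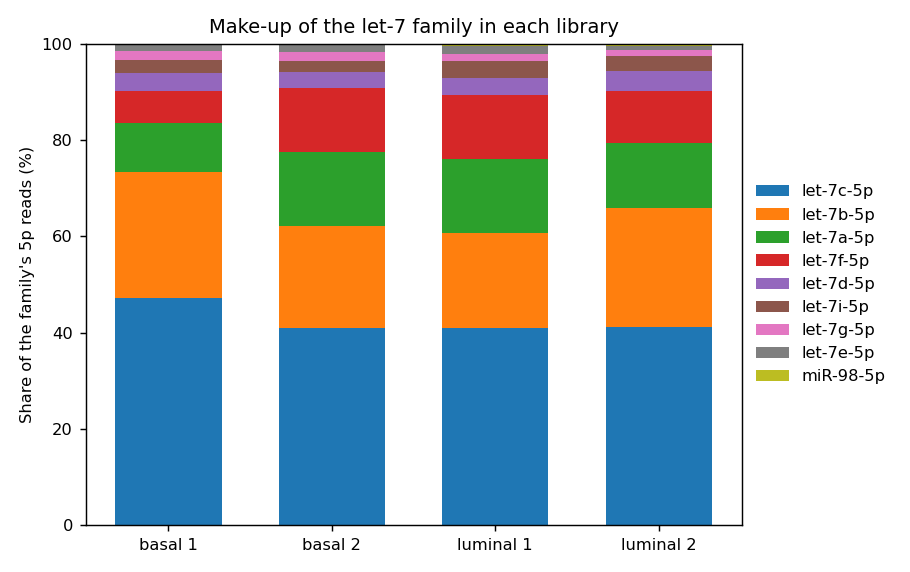
Make-up of the let-7 family in each library, as the share of its 5p reads taken by each member, in percent, stacked in order of mean level. let-7c takes 40.9% to 47.1% in every library, and let-7a with let-7f takes least in basal replicate 1 (16.9%).

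The 5p arm is the main product of let-7 precursors, and the 3p arm is mostly degraded as the passenger strand. Summed over the family, there were 8.64 and 17.8 reads of 3p arms for every 1000 reads of 5p arms in basal libraries, and 14.997 and 17.4 in luminal libraries. let-7d was the exception among the precursors. mmu-let-7d-3p alone gave 78.0% and 79.6% of the family's 3p reads in basal and 76.9% and 85.2% in luminal libraries. It had 184 and 423 reads for every 1000 reads of let-7d-5p in basal libraries, and 334 and 353 in luminal libraries. The level of let-7d-3p was 593 and 689 RPM in basal and 448 and 618 RPM in luminal libraries, with overlap between groups (log2 fold change 0.27 with a standard error of 0.59, edgeR adjusted p = 0.878).

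Among the other 3p arms, let-7i-3p had 20.4 and 34.7 reads for every 1000 of its 5p arm in basal and 43.9 and 22.3 in luminal libraries. let-7b-3p had 180 and 310 reads in basal and 50 and 11 reads in luminal libraries, so both basal libraries were higher also in RPM. edgeR gave a log2 fold change of 1.75 ± 1.01 (standard error, adjusted p = 0.388), which passed only without luminal replicate 1 (3.20, adjusted p = 0.0489). let-7g-3p had 81 and 25 reads in basal and 24 and 0 reads in luminal libraries, a log2 fold change of 1.03 that did not pass (adjusted p = 0.800 by edgeR). It also passed without luminal replicate 1 (adjusted p = 0.0307), where the fold is against the library with 0 reads and has no set size; leaving out basal replicate 1 turned it to -0.29 on the log2 scale. let-7f-1-3p had 16 and 27 reads in basal and 2 reads in each luminal library (edgeR adjusted p = 0.686).

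The passenger arms that were not tested were let-7a-2-3p, let-7e-3p and miR-98-3p. let-7a-2-3p had 1 read in basal replicate 2 and none elsewhere, and let-7e-3p had 5 and 20 reads in basal and 6 in each luminal library. miR-98-3p had 4 and 10 reads in basal and none in luminal libraries. A count of 0 there allows a 3p share of up to 1.45% and 1.74% in luminal replicates 1 and 2, against 0.820% and 2.40% measured in basal libraries. A share as in basal replicate 1 would thus not have been detectable at the luminal depth. That of basal replicate 2 lay above both limits, but it rests on 10 reads. Its exact interval, 1.16% to 4.37%, reaches below both limits. These counts therefore cannot decide whether the 3p share was lower in luminal libraries.

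let-7a-1-3p is shown with a let-7b arm to make plain why let-7a and let-7c cannot be compared by arm; capitals mark bases 2 to 8.
mmu-let-7a-1-3p: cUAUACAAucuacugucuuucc
mmu-let-7b-3p: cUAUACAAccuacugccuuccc
The RefSeq sequence of let-7c-2-3p is identical to that of let-7a-1-3p, and no 3p arm of let-7c was listed under its own name. The reads of let-7a-1-3p, 29 and 74 in basal and 13 and 78 in luminal libraries, may therefore come from Mirlet7a-1 on chromosome 13, from Mirlet7c-2 on chromosome 15, or from both. Luminal replicate 2 was the highest in RPM (63.4, against 9.94 in luminal replicate 1, and 10.8 and 22.0 in basal replicates 1 and 2), and the log2 fold change of -1.15 turned to 0.76 without it (adjusted p = 0.686 with it and 0.896 without it, edgeR).

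**Figure D5:**
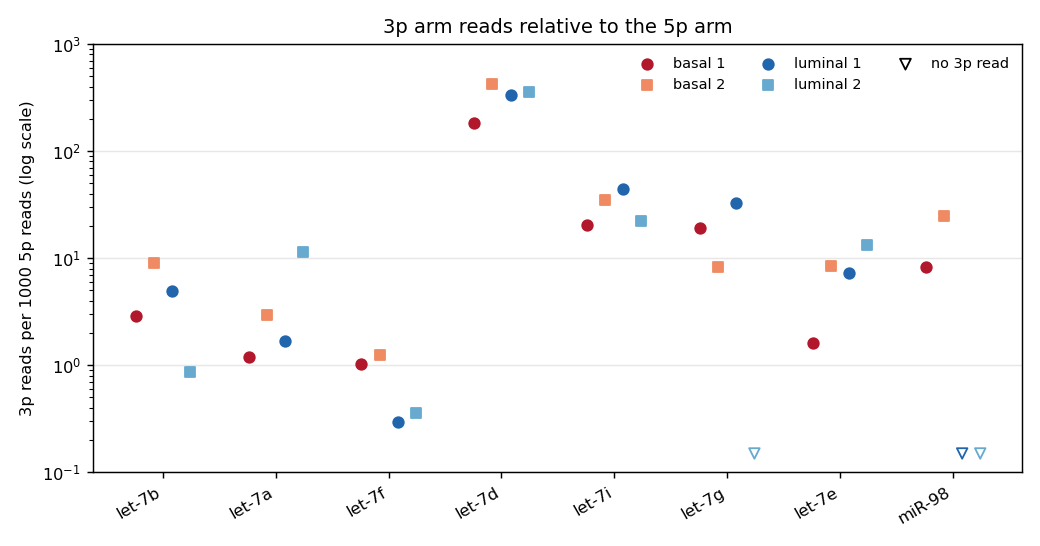
Reads of the 3p arm for every 1000 reads of the 5p arm, on a log scale, in the 2 basal and 2 luminal libraries for the 8 stems with a listed 3p arm; open triangles at the bottom mark libraries with no 3p read. let-7d lies between 184 and 423, above every other stem in every library.

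The miR-99, miR-100 and miR-125 miRNAs share primary transcripts with let-7c-1, let-7a-2 and let-7e. Of 11 such arms looked up, 10 were tested and none was called in either direction, with a median log2 fold change of 0.59 (7 above 0 and 3 below). Over all tested miRNAs 4.35% were called and 49.9% had a log2 fold change above 0, so these counts are no result about the partners. Among those with a mean of at least 100 RPM, the closest to the mean pattern of all members was miR-99b-5p, from the let-7e cluster. It had 1367 and 856 RPM in basal and 612 and 618 RPM in luminal libraries, which edgeR put at a log2 fold change of 0.85 (adjusted p = 0.472). For every 100 reads of let-7e there were 118 and 122 reads of miR-99b-5p in basal and 96.0 and 168 in luminal libraries. miR-99a-5p, the partner of let-7c-1, had 17.2 and 29.9 reads for every 100 reads of let-7c in basal and 46.5 and 35.8 in luminal libraries. This was the 1 partner ratio of 5 without overlap between groups, though let-7c reads also come from Mirlet7c-2, which has no such partner. In RPM, 51.6% of all tested miRNAs did not overlap in one direction or the other, so the lack of overlap is no result about this pair. The groups overlapped for miR-125b-5p, with 81.2 and 236 reads for every 100 of let-7c in basal and 226 and 167 in luminal libraries. Its reads may also come from Mir125b-1, which lies on chromosome 9 with Mirlet7a-2. Overlap was also seen for miR-125a-5p, with 504 and 1663 reads for every 100 of let-7e in basal and 918 and 2226 in luminal libraries. For miR-100-5p the groups overlapped too, with 7.75 and 15.4 for every 100 of let-7a in basal and 24.0 and 11.4 in luminal libraries. Reads of let-7a may also come from Mirlet7a-1 on chromosome 13.

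By a rule of likeness, 127 miRNAs outside the family with a mean of at least 100 RPM were compared with the mean pattern of the members over the 4 libraries, as the Euclidean distance between centred log2 RPM. The nearest was miR-99b-5p at 0.24, followed by miR-181a-5p at 0.29, miR-15b-5p at 0.35, miR-196b-5p at 0.42 and miR-484 at 0.47. The median distance of the 127 was 1.43, and the members themselves lay between 0.33 (let-7c) and 0.68 (let-7f). These distances rest on 4 libraries that share their depth and scaling, and are a description only.

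Of 8 other miRNAs known to repress Lin28, which were miR-9-5p and members of the miR-30 and miR-125 families, 1 was called and 7 were not. Over all tested miRNAs 4.35% were called in either direction, and a list of 8 is too short to set 1 call against that share. The called miRNA was miR-9-5p, lower in basal libraries with 3 and 24 reads, against 338 and 91 reads in luminal libraries (edgeR log2 fold change -5.29, adjusted p = 0.0128). The other 7 had log2 fold changes from -0.24 for miR-30d-5p to 1.03 for miR-30a-5p.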

How the data were processed

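Small RNA libraries from sorted basal and luminal prostate cells (2 each) were analysed. Per the file headers, the authors deposited raw read counts, 1 for each miRNA name and library. The table is named for BLAST. The sources used here do not state its version, the miRNA database, the trimming or the handling of reads with several matches. A name absent from a library's list was taken as 0 reads. The 4 names that are not miRNAs (29.5% to 62.4% of listed reads) were kept out of miRNA totals and were not tested; they enter the share of all listed reads, and Cali reads scale 1 alternative fit. The unnamed total closing each list was left out throughout.

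All miRNAs were fitted together in edgeR 4.0.16 (R 4.3.3): TMM factors, filterByExpr (minimum 10 reads, total 15), which left 345 miRNAs, a 2-sided quasi-likelihood test of basal over luminal, and Benjamini-Hochberg adjustment with a threshold of 0.05. The standard error is the log2 fold change over the square root of F, and 95% intervals use the fit's degrees of freedom. DESeq2 1.42.0 was an alternative. Shares have exact Clopper-Pearson intervals (scipy 1.17.1), and a count of 0 was read as up to 3 reads. PCR reads are not independent molecules, so intervals cover counting error only. The distance of patterns used log2(RPM + 1).

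Sequences and precursor positions are RefSeq's on GRCm38.p6, and overlapping genes are GENCODE M21's; the files hold no coordinates. All 9 members matched by name. The members and lists were chosen with earlier results of these data known. Beyond the members and their 3p arms, named miRNAs are cluster partners, markers, other miRNAs known to repress Lin28 and the 5 nearest in pattern.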

Additional observations from a re-analysis of the deposited data

Results flagged for a closer look

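The sequences named Cali, which are not among the features tested, took 29.3% and 54.0% of the listed reads in the basal libraries, against 62.1% and 59.4% in the luminal ones. They drew attention as signal outside the miRNAs, and no source used here says what they are. For every 1000 Cali reads there were 306 and 42.4 reads of the let-7 family in basal and 19.4 and 23.3 in luminal libraries.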

How the results depend on the processing

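No let-7 member was called in either direction under any of the 13 alternatives of the fit, and their median log2 fold change stayed above 0 in each. It was 1.31 with library totals alone and 2.94 with scaling to the Cali reads. Over miRNAs tested in both fits, the median shift from the main fit was 0.57 and 2.01 in those settings. The same shift was 0.30 for upper-quartile factors, 0.14 for no filter and 0.20 for leaving out luminal replicate 1. The members' medians there were 0.99, 0.81 and 0.64. Without luminal replicate 1 the median of all miRNAs in that fit was 0.47, and the members' median exceeded it by 0.16. The log2 ratio of family shares (main 1.42) was 0.21 with miR-200c-3p out of the total, 2.12 over all listed reads, and 0.59 to 1.94 with 1 library left out.

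Some signs turned, for miR-98-5p and let-7i-3p from main values near 0, and for let-7i-5p (main 0.39), let-7a-1-3p (-1.15) and let-7g-3p (1.03) from larger ones. miR-98-5p was at -0.0063 with RLE factors, -0.017 with miR-200c-3p left out, -0.015 under a 10 RPM minimum and -0.0065 in DESeq2. let-7i-3p (main -0.06) was at 0.56 with library totals, 0.27 with upper-quartile factors, 2.12 with Cali scaling and 0.11 with no filter, and let-7a-1-3p at 0.48 with Cali scaling. With 1 library left out, ranges were -0.34 to 0.88 for let-7i-5p, -0.31 to 0.29 for miR-98-5p, -1.90 to 0.76 for let-7a-1-3p, -0.29 to 8.56 for let-7g-3p and -0.46 to 0.68 for let-7i-3p. Of the 194 values of members and 3p arms under the alternatives, 18 changed sign. Apart from these and the values of let-7b-3p and let-7g-3p without luminal replicate 1 given above, the other 174 kept their sign and side of the threshold. The cause of the changes was not tested.

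The labels number replicates alike in both groups without saying that a number marks a shared animal or day. Deviations of same-numbered libraries correlated at 0.15 across 345 miRNAs. The replicate block changed no call of a member, put miR-98-5p at -0.0071 and let-7i-3p at 0.031, and gave 23 calls over all miRNAs against 15.

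Over all miRNAs, calls higher and lower in basal cells were 2 and 13 in the main setting, 1 and 1 with library totals, 3 and 10 with upper-quartile factors, 3 and 0 with Cali scaling, 1 and 4 under a 10 RPM minimum, 7 and 21 in DESeq2, 4 and 5 without basal replicate 1, 2 and 8 without basal replicate 2, 33 and 28 without luminal replicate 1, and 5 and 22 without luminal replicate 2. With 2 libraries a group, depth limits the 3p arms, of which 6 of 9 had under 100 reads in every library.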
